A study of Mus musculus with 6 samples.

Results

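The Slc25 genes encode the mitochondrial carriers. All probe sets of the array that the platform's gene table pairs with a single symbol starting with Slc25a were taken, which gave 93 probe sets of 44 genes. Each gene was represented by the probe set with the highest mean log2 signal over the arrays. Of the 44 genes, 36 lay at or above a mean log2 signal of 9.08, the median over all probe sets, and were tested among 11763 named genes. The other 8 were dimmer and are given as values only.

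The data come from the gastrocnemius, the large calf muscle, of male mice labelled C57B1/6 with a normal karyotype. RNA of 3 young samples (replicates 1, 2 and 3) and 3 aged samples (replicates 51, 52 and 53) was hybridised to 1 Affymetrix array each, with 45101 probe sets per array. No treatment is named, and the labels used here state no ages. They do not tell whether each array holds its own animal either, so p-values reflect the spread among these 6 samples, and that spread may be technical.

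Median signals per array ran from 636.7 to 833.2. Fluidics station 1 handled the 3 young samples and aged replicate 51, and station 2 handled aged replicates 52 and 53. Control probes at the 3 prime end exceeded those at the 5 prime end by a mean log2 ratio of 1.75 in young and 2.33 in aged samples. The ratio was 1.71, 1.77 and 1.75 in young replicates 1, 2 and 3. In aged replicates 51, 52 and 53 it was 2.11, 2.00 and 2.86. Every aged ratio lay above every young one, so the ratio differs between the groups along with age. Markers of skeletal muscle were bright in both groups. Their summed signal was 2355000 to 2901000 in young and 1638000 to 1969000 in aged samples, and all 7 had a negative change (median -0.63), with 0 past the test. In a sample of whole muscle, fewer cells of a type and less RNA per cell cannot be told apart.

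Mitochondrial carriers are small membrane proteins, most of which sit in the inner membrane and exchange a metabolite of the matrix for one outside it. In muscle the best known are the adenine nucleotide translocases, which release ATP made in the matrix in return for ADP, and the phosphate carrier, which supplies the other substrate of ATP synthase. Further carriers move the intermediates of the malate-aspartate shuttle, acylcarnitines for fatty acid oxidation, citrate for lipid synthesis, amino acids, cofactors and iron.

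Aged muscle was set against young to ask whether the transcripts of these carriers differ with age. None of the 36 tested carriers passed limma's test at an adjusted p of 0.05, in either direction. Of all 11763 genes tested, 1.39% passed, 0.391% higher and 1.00% lower in aged muscle. At an unadjusted p below 0.05 there was 1 carrier of 36 (2.78%), Slc25a1, against 11.4% of all genes. This count depended on the samples and the fit: it was 2 without young replicate 2 or 3, 4 without aged replicate 53, 3 after quantile normalization, 4 with the ratio of the control probes as a covariate and 6 with the fluidics station as one. The carriers' median change, aged minus young on the log2 scale, was 0.11, with 21 positive and 15 negative changes, and the median over all tested genes was 0.0028. Individual changes ran from -1.65 to 1.47.

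How narrowly a change was bounded differed among the carriers. On the brightest probe set, the 95% confidence interval of the change, not adjusted for the number of genes, lay wholly within 2-fold either way for 13 of the 36. These were Slc25a3, Slc25a4, Slc25a5, Slc25a11, Slc25a12, Slc25a16, Slc25a20, Slc25a36, Slc25a37, Slc25a39, Slc25a45, Slc25a46 and Slc25a51, with changes between -0.33 and 0.48. For 6 of the 13 (Slc25a4, Slc25a5, Slc25a12, Slc25a20, Slc25a36 and Slc25a39) another tested probe set had an interval past 2-fold, and of the other 7 only Slc25a46 and Slc25a51 had more than 1 tested probe set. On the second probe set of Slc25a36 the interval was 0.14 to 2.28, and on a further probe set of Slc25a4 it was -1.24 to -0.20. For the other 23 the interval reached past 2-fold on at least one side. The 5 changes greater than 2-fold belonged to Slc25a1, Slc25a29, Slc25a30, Slc25a35 and Slc25a47, and of these only the interval of Slc25a1 lay wholly on one side of 0.

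**Figure D1:**
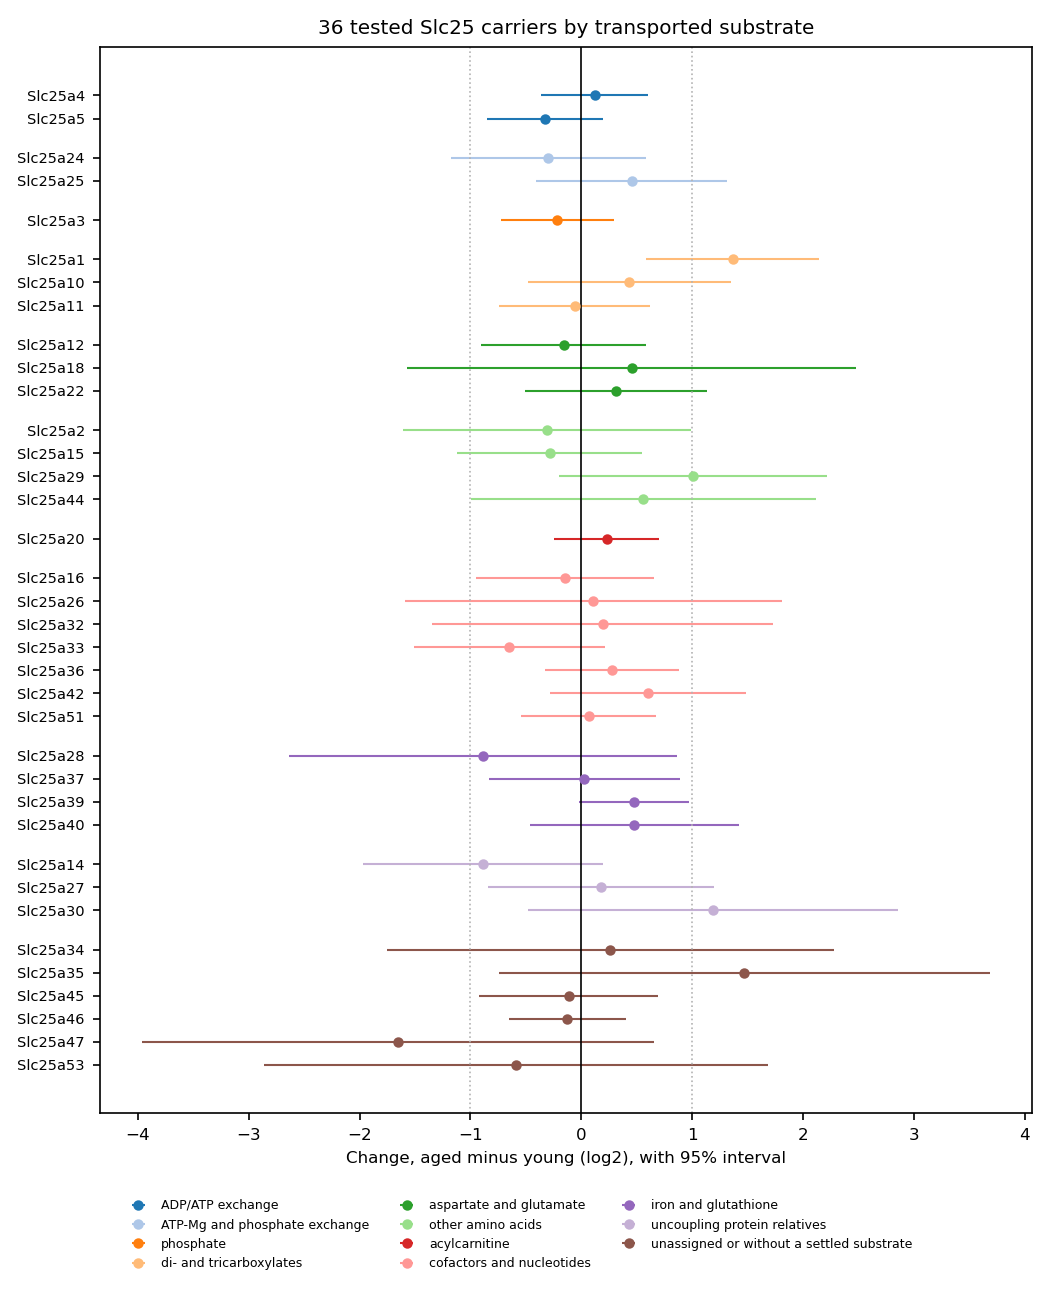
Change of each of the 36 tested carriers, aged minus young on the log2 scale (horizontal axis), grouped and coloured by transported substrate; points are limma estimates, bars are 95% confidence intervals and dotted lines mark a 2-fold change. The interval of Slc25a1 (0.59 to 2.14) does not reach 0, that of Slc25a39 starts at -0.02, and the intervals of Slc25a47 and Slc25a53 are the widest.

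On 2 of the 36 carriers (5.56%), Slc25a1 and Slc25a39, every aged sample lay above every young one, as for 7.58% of all tested genes. On 1 carrier (2.78%), Slc25a33, every aged sample lay below every young one, as for 9.63% of all genes. These 3 are the carriers whose groups stood apart on the brightest probe set, and their promoters are shown for that reason. The sequences are RefSeq's for build GRCm38.p6 and run 5′ to 3′ on the gene's strand, from 250 bases before to 50 after its start. Capitals mark GC boxes (GGGCGG) and CCAAT boxes (CCAAT) on either strand.

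Slc25a1, chr16:17928170-17928469, minus strand: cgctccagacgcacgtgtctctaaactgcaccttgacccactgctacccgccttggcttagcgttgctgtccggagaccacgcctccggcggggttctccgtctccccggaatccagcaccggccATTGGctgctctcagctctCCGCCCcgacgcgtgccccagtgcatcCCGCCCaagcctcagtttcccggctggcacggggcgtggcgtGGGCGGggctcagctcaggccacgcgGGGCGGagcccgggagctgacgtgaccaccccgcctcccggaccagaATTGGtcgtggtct
Slc25a39, chr11:102407468-102407767, minus strand: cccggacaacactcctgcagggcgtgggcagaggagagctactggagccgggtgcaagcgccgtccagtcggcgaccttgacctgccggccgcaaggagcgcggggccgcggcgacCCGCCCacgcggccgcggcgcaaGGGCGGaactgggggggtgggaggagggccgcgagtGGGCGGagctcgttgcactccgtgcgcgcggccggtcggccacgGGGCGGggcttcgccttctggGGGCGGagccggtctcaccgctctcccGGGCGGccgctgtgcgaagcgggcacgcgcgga
Slc25a33, chr4:149774218-149774517, minus strand: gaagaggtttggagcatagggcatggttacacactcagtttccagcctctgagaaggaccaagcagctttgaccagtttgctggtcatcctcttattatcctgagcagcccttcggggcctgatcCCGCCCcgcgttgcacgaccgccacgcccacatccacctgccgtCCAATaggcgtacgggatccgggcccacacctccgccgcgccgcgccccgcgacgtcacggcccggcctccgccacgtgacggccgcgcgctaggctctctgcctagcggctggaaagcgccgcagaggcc

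The Slc25a1 window holds 4 GC boxes and 2 CCAAT boxes, that of Slc25a39 holds 6 GC boxes, and that of Slc25a33 holds 1 of each, with 0 bases shared between matches. RefSeq's table held 43 such windows for 34 of the 44 carriers. A GC box was found in 86% of these windows, in 46.2% of the 21263 windows of protein-coding genes and in 35.7% of all 32851 windows. The median GC content was 59.7% in the carriers' windows, 56.3% in those of protein-coding genes and 52.7% in all. CCAAT boxes were in 48.8% of the carriers' windows, 38.2% of protein-coding and 37.4% of all. On either strand, the core letters of the NRF1 motif (GCATGCGC) were in 4.65%, 3.52% and 2.71%, an estrogen-related receptor motif (AAGGTCA) in 2.33%, 4.08% and 4.72%, and a sterol regulatory element (TCACNCCAC) in 2.33%, 1.19% and 1.24%. A match describes these letters in this window and is not evidence of binding, and the windows of Slc25a1, Slc25a39 and Slc25a33 hold none of the last 3 motifs.

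Slc25a1, the citrate carrier, exports citrate to the cytosol, where it is split to acetyl-CoA for fatty acid and sterol synthesis. Its log2 signal was 10.54, 10.32 and 10.78 in young replicates 1, 2 and 3, and 11.50, 12.05 and 12.18 in aged replicates 51, 52 and 53. All aged samples were above all young ones, and the lowest aged value was that of replicate 51. The difference was 1.37 ± 0.36 (SE, n = 3 per group), a 2.58-fold higher mean in aged muscle, and it did not pass (limma adjusted p = 0.13). Within station 1, which leaves aged replicate 51 as the only aged sample, the difference was 0.96.

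Other genes of citrate use were read beside it, from a list of citrate synthase and the enzymes of citrate export and fatty acid synthesis. Of 6 measured, 2 rose and 4 did not pass, with 5 positive changes and a median of 1.91. The risen genes were Acly, the ATP citrate lyase (2.91 ± 0.33, adjusted p = 0.000792), and Fasn, the fatty acid synthase (3.62 ± 0.42, adjusted p = 0.000923). Acly was lowest among aged samples on replicate 51, at 16.21, against 17.42 on replicate 52 and 17.27 on replicate 53, and 13.63 to 14.57 in young samples. Of those that did not pass, Me1 was at 2.20 ± 0.53 (limma adjusted p = 0.0942) and Acaca at 1.63 ± 0.38 (adjusted p = 0.0778). For both, all aged samples lay above all young ones, as for 7.58% of all tested genes. Acacb was at 0.20 ± 0.33. Citrate synthase, Cs, which makes citrate in the matrix, was at -0.10 ± 0.20 (adjusted p = 0.887). Without young replicate 3, 4 of the 6 passed, and 0 passed when limma's spread was not allowed to depend on signal. Markers of fat cells were read as well. Of 5 measured 3 rose, Adipoq, Retn and Fabp4, while Cidec (1.63 ± 0.60) and Lep (0.205 ± 0.36) did not pass. The summed signal of the 5 was 73430 to 85410 in young and 149900 to 255200 in aged samples, most of it from Fabp4. Of these markers 0 passed with the fluidics station as a covariate or when limma's spread was not allowed to depend on signal, 1 (Retn) passed without young replicate 2, 1 (Adipoq) with the control ratio as a covariate, and 2 (Adipoq and Retn) without young replicate 1 or 3 or aged replicate 52. The part of fat cells in the difference of Slc25a1 was not tested.

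The other carriers of di- and tricarboxylates stayed closer to 0. Slc25a10, the dicarboxylate carrier, which exchanges malate or succinate for phosphate, had a log2 signal of 10.92, 11.77 and 11.05 in young and 10.91, 12.39 and 11.76 in aged samples. The groups overlapped, with aged replicate 51 the lowest of all and replicate 52 the highest (0.43 ± 0.42, adjusted p = 0.762). The change was -0.34 within station 1, and the dim second probe set of Slc25a10 was at -1.01. Slc25a11, the oxoglutarate carrier of the malate-aspartate shuttle, was at 12.49, 11.68 and 12.09 in young and 12.08, 12.30 and 11.70 in aged samples. The aged values lay within the young range (-0.06 ± 0.31, 95% interval -0.74 to 0.62).

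The adenine nucleotide translocases are the carriers of ADP and ATP. Slc25a4, the form of heart and skeletal muscle, had a log2 signal of 18.26, 18.38 and 18.21 in young and 18.34, 18.30 and 18.56 in aged samples on its brightest probe set. The groups overlapped (0.12 ± 0.22, adjusted p = 0.881). The next brightest probe sets of Slc25a4 pointed the other way. One was at 17.81, 17.69 and 17.46 in young and 17.05, 16.68 and 17.37 in aged samples (-0.62 ± 0.24, adjusted p = 0.384), and the other was at -0.72 ± 0.24 (adjusted p = 0.279). On both, all aged samples lay below all young ones, as on 1968 of all 22519 tested probe sets. The dimmest was at 1.34 ± 1.11 with overlapping groups. The direction for Slc25a4 therefore depends on the probe set.

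Slc25a5, the translocase typical of dividing cells, was at 14.10, 13.79 and 14.22 in young and 13.32, 13.89 and 13.92 in aged samples (-0.33 ± 0.24, adjusted p = 0.68). All 8 of its tested probe sets had a negative change, from -1.07 to -0.15, and 0 passed. On 7 of these 8 the lowest sample was aged replicate 51. On 2 all aged samples lay below all young ones, as on 1968 of all 22519 tested probe sets. The 8 probe sets measure transcripts of 1 gene on the same 6 arrays, so they are not replicates, and 7 are of kinds that can bind more than 1 transcript. Slc25a31, the testis form, was dim, at a mean log2 signal of 6.79 in young and 5.38 in aged samples.

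Slc25a3, the phosphate carrier, was at 17.05, 16.50 and 17.05 in young and 16.56, 16.46 and 16.93 in aged samples. Young replicate 2 lay within the aged range (-0.21 ± 0.23, 95% interval -0.72 to 0.29). The calcium-regulated carriers that exchange ATP-Mg for phosphate adjust the matrix pool of adenine nucleotides. Slc25a25 was at 11.04, 11.09 and 10.93 in young and 11.47, 12.15 and 10.81 in aged samples. Its young values were close together and the aged values lay on both sides of them (0.46 ± 0.40, adjusted p = 0.734), while its other tested probe set was at -0.96. Slc25a24 was at -0.30 ± 0.41. The remaining 3, Slc25a23 (-0.56), Slc25a41 (-0.08) and Slc25a54 (1.86), were dim and were not tested.

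The aspartate-glutamate carriers bring the reducing equivalents of cytosolic NADH towards the matrix. Slc25a12, the form of muscle and brain, was at 14.19, 13.20 and 14.04 in young and 12.93, 13.87 and 14.14 in aged samples. Young replicate 2 and aged replicate 51 were the low samples (-0.16 ± 0.34, adjusted p = 0.901). The next probe set was at -0.40 and the third at 0.85. Slc25a13, the liver form known as citrin, was dim, with 9.56, 6.84 and 6.87 in young and 7.13, 6.69 and 5.69 in aged samples, so that only young replicate 1 stood above the filter. The glutamate carriers Slc25a22 (0.32 ± 0.38) and Slc25a18 (0.46 ± 0.93) did not pass.

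The enzymes of the malate-aspartate shuttle, which work with Slc25a11 and Slc25a12, all had negative changes. Of the 4, 0 passed, with a median of -0.36. The transaminases were at -0.35 ± 0.44 for Got1 and -0.34 ± 0.21 for Got2. The malate dehydrogenases were at -0.63 ± 0.28 for Mdh1 (adjusted p = 0.478) and -0.38 ± 0.22 for Mdh2. Without aged replicate 53, 1 of the 4 passed.

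Slc25a20, the carnitine-acylcarnitine carrier, admits long-chain fatty acids to the matrix for oxidation. It was at 14.27, 13.84 and 13.77 in young and 14.16, 14.13 and 14.27 in aged samples. The aged samples lay close together near the top of the young range (0.23 ± 0.22, adjusted p = 0.756, 95% interval -0.24 to 0.70). Both of its probe sets were positive. Of 4 measured enzymes and transporters of the carnitine shuttle 0 passed, with 1 positive change and a median of -0.28.

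Carriers of other amino acids were variable. Slc25a29, which moves basic amino acids, was at 8.94, 10.98 and 10.63 in young and 11.60, 11.32 and 10.65 in aged samples. Young replicate 1 was far below the others, and without it the change was 0.39 in place of 1.01 ± 0.56 (adjusted p = 0.58). All 4 tested probe sets of Slc25a29 were positive, from 0.87 to 1.59, and a dim one was at -2.02. The ornithine carriers of the urea cycle were at -0.31 ± 0.60 for Slc25a2 and -0.28 ± 0.39 for Slc25a15. The dim second probe set of Slc25a15 was at 2.03, with all aged samples above all young ones. Slc25a44, described as a carrier of branched-chain amino acids, was at 0.56 ± 0.72. Slc25a38, the glycine carrier used in haem synthesis, was dim, with a change of 0.84.

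**Figure D2:**
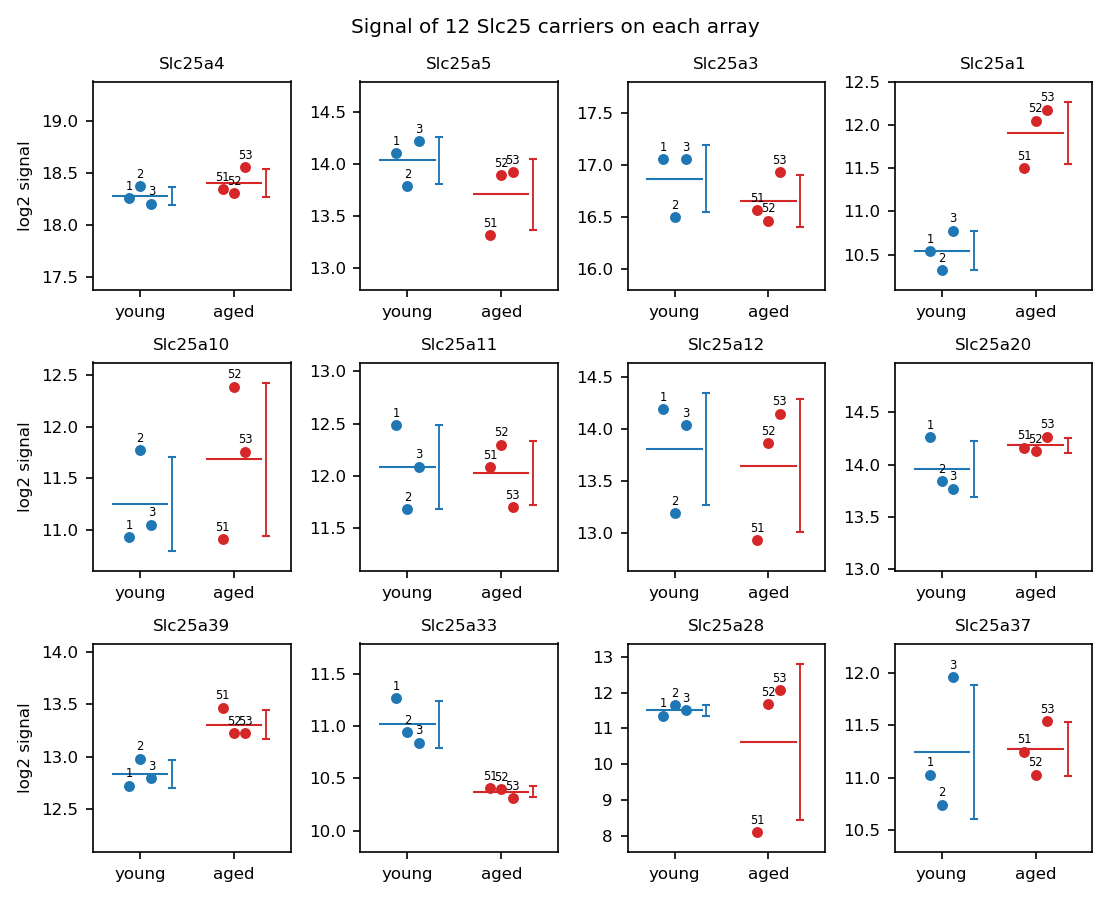
Log2 signal (vertical axes, a separate scale per panel) of 12 carriers on each array, young in blue and aged in red, with replicate numbers beside the points; horizontal lines are group means and vertical bars are SD (n = 3). The groups stand apart for Slc25a1, Slc25a39 and Slc25a33, and aged replicate 51 is alone at 8.10 for Slc25a28.

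Iron and glutathione carriers serve the building of iron-sulphur clusters and haem and the defence against oxidation. Slc25a39, a carrier of glutathione, was at 12.72, 12.98 and 12.79 in young and 13.47, 13.23 and 13.23 in aged samples. The groups did not overlap, and the mean was 1.39-fold higher in aged muscle (0.48 ± 0.23, adjusted p = 0.518, 95% interval -0.02 to 0.97). All 3 of its tested probe sets were positive, from 0.48 to 0.62, and 0 passed. Each had all aged samples above all young ones, as did 1669 of all 22519 tested probe sets. These 3 measure a single gene on the same arrays, so they are not replicates, and all are of a kind that can bind further transcripts. The dim probe sets of Slc25a39 were at -0.32 and 0.61, with overlapping groups. Its paralogue Slc25a40 was at 0.48 ± 0.43.

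The mitoferrins bring iron into the matrix. Slc25a37, mitoferrin 1, known best from developing red cells, was at 11.03, 10.74 and 11.96 in young and 11.25, 11.03 and 11.54 in aged samples (0.03 ± 0.40, adjusted p = 0.987). The aged values lay within the young range. Slc25a28, mitoferrin 2, was at 11.36, 11.65 and 11.50 in young and 8.10, 11.68 and 12.08 in aged samples. Only aged replicate 51 was low, and the other aged samples lay above every young one. The change was -0.88 ± 0.81 (adjusted p = 0.747) and 0.38 without that replicate. With the fluidics station as a covariate it was -3.40 (adjusted p = 0.011), an estimate that sets replicate 51 alone against the young samples. Slc25a28 had a single probe set, so no other probe set on this array bears on the low value.

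Of 6 measured genes of iron uptake, iron-sulphur clusters and haem synthesis, 1 fell and 5 did not pass (median -0.08). It was Tfrc, the transferrin receptor through which cells take up iron, at 14.87, 14.75 and 15.00 in young and 12.26, 12.56 and 13.35 in aged samples (-2.15 ± 0.28, adjusted p = 0.00172). With all probe sets of a gene averaged, or with limma's spread not allowed to depend on signal, 0 genes of this list passed. Of 4 named red cell markers 1 was measured (Hbb-b2, -0.90 ± 0.40), and Hba-a1, Alas2 and Slc4a1 were dim. Their summed signal was 9243 to 14600 in young and 4309 to 13890 in aged samples.

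Carriers of cofactors and nucleotides held the only tested carrier with all aged samples lower on its brightest probe set. Slc25a33, a carrier of pyrimidine nucleotides, was at 11.27, 10.94 and 10.84 in young and 10.41, 10.40 and 10.31 in aged samples. The aged samples were nearly alike, and the young mean was 1.57-fold higher (-0.65 ± 0.40, adjusted p = 0.617). The other pyrimidine nucleotide carrier, Slc25a36, was at 0.28 ± 0.28 on its brightest probe set, 1.21 on the next and -1.41 on the dimmest, where aged replicate 51 was at 5.77 and all other samples were at 9.62 or above. Slc25a42, which carries coenzyme A, was at 0.60 ± 0.41, and Slc25a16, a related carrier, at -0.15 ± 0.37. The NAD carrier Slc25a51 was at 0.07 ± 0.28, and its other tested probe set was at 0.12. Slc25a26, which imports S-adenosylmethionine, was at 0.11 ± 0.78, and Slc25a32, linked to folate and flavin transport, at 0.19 ± 0.71. The peroxisomal carrier Slc25a17 was dim (0.43).

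Relatives of the uncoupling proteins have less settled substrates. Slc25a14 was at -0.89 ± 0.50 (adjusted p = 0.587), Slc25a27 at 0.18 ± 0.47 and Slc25a30 at 1.19 ± 0.77. Further tested probe sets of Slc25a27 were at -0.05 and 0.44. A dim one was at 1.74, with all aged samples above all young ones. For Slc25a30 the low sample was young replicate 2, and without it the change was 0.18. Its other 3 tested probe sets were at 0.03, 0.04 and -0.90. Among carriers with no settled substrate, Slc25a35 was at 1.47 ± 1.02 and Slc25a47 at -1.65 ± 1.06, and neither passed (adjusted p = 0.663 and 0.634). With 1 sample left out, Slc25a35 ranged from 0.80 (without young replicate 2) to 2.16 (without aged replicate 52). Slc25a47 ranged from -2.75 (without aged replicate 53) to -0.79 (without aged replicate 51). Slc25a34 was at 0.26 ± 0.93, Slc25a45 at -0.11 ± 0.37 and Slc25a53 at -0.59 ± 1.04. Slc25a46, an outer membrane protein that acts in mitochondrial shape, was at -0.12 ± 0.24, and its other tested probe set was at 0.15. Slc25a48 was dim, at a mean log2 signal of 9.34 in young and 8.34 in aged samples.

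Several probe sets were tested for 12 carriers, and their changes had a single sign for 5 carriers and mixed signs for 7. The 5 were Slc25a5, lower in aged muscle on every tested probe set, and Slc25a20, Slc25a29, Slc25a39 and Slc25a51, higher on every tested probe set. Of the family's 64 tested probe sets 0 passed, against 1.05% of all 22519 tested. At an unadjusted p below 0.05 there were 6 (9.38%), close to the 10.0% of all tested probe sets.

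**Figure D3:**
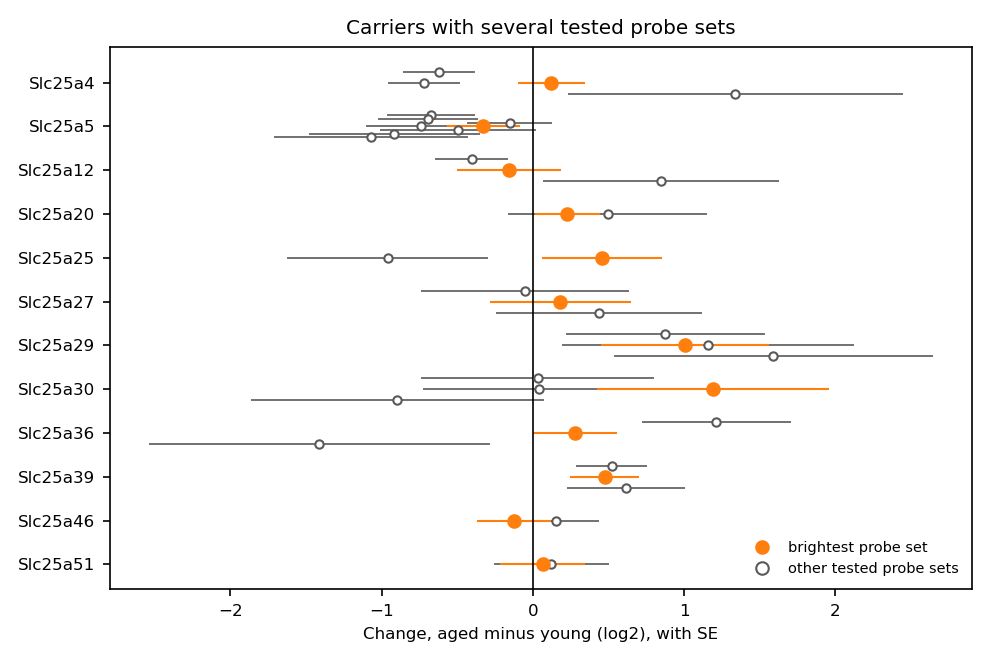
Change, aged minus young on the log2 scale with SE (horizontal axis), on every tested probe set of the 12 carriers with several; the filled orange point is the brightest probe set, which represents the gene, and open points are the others. Slc25a5 lies to the left of 0 on all 8 probe sets and Slc25a39 to the right on all 3, and Slc25a4 lies on both sides.

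The samples took unequal shares of the extremes. Aged replicate 51 was the lowest sample on 11 of the 36 carriers (30.6%) and the highest on 9 (25%), and it was the lowest on 22.2% and the highest on 22% of all tested genes. Young replicate 2 was the lowest on 10 carriers (27.8%), against 15.7% of all genes, and it was the low young sample for Slc25a3, Slc25a5, Slc25a12 and Slc25a30. Aged replicate 52 was the lowest on 2 carriers (5.56%), against 17.4% of all genes. The SD was greater in the aged than in the young group for 23 of the 36, and the share over all genes was not computed. The median SD of these carriers was nearly equal, 0.42 in young and 0.44 in aged samples.

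Members of the family that carry other symbols, and proteins that handle carriers, did not pass either. Of 2 measured relatives, the uncoupling protein Ucp3 was at -0.25 ± 0.51 and Mtch2, an insertase of the outer membrane, at -0.53 ± 0.28 (adjusted p = 0.562). Mtch2 was at 12.37, 12.22 and 12.70 in young and 11.75, 12.12 and 11.84 in aged samples. All aged samples lay below all young ones, as for 9.63% of all tested genes. Mtch1 and Ucp1 were dim. The pyruvate carrier subunit Mpc1 was at -0.16 ± 0.34. Of 11 measured genes of the import route that delivers carriers to the inner membrane 0 passed, with 9 negative and 2 positive changes and a median of -0.39. Of 6 measured regulators of mitochondrial gene expression 0 passed, with a median of 0.13. The coactivator Ppargc1a was at -0.37 ± 0.42 and the nuclear receptor Esrra at 0.16 ± 0.32.

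Markers of other cell types moved strongly in places. Slow-twitch fibre markers fell for 6 of 7 (summed signal 121900 to 150500 in young and 13860 to 19620 in aged samples). Those that passed were Atp2a2, Myl2, Myl3, Tnnc1, Myh7 and Tnnt1. Fibroblast markers fell for 3 of 6 (689100 to 923600 and 70620 to 80830). The fallen ones were the collagens Col1a1 (-5.71), Col1a2 (-4.62) and Col3a1 (-3.89), which made up most of the young sum. Lum (-1.91), Dcn (-0.73) and Pdgfra (-0.23) did not pass. Of 4 measured macrophage, 4 endothelial and 3 brown fat markers, 0 passed. Their summed signals include the dim markers Cd68, Pecam1 and Ucp1. For macrophages the sum was 54210 to 71050 in young and 60810 to 97030 in aged samples. For endothelium it was 7994 to 9998 and 5957 to 10800, and for brown fat 29110 to 40240 and 14200 to 50910. The part of these cell types in the carriers' changes was not tested.

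**Figure D4:**
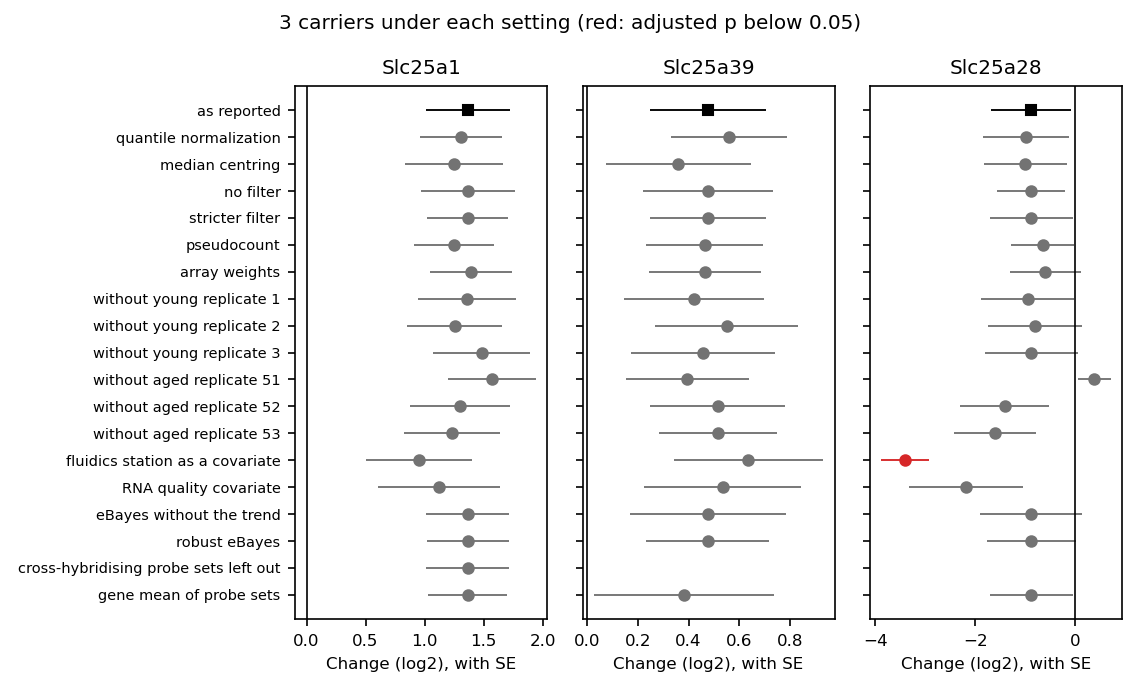
Change with SE (horizontal axes, log2, a separate scale per panel) of Slc25a1, Slc25a39 and Slc25a28 as reported (black square) and under each alternative processing (circles; red where the adjusted p was below 0.05). Slc25a1 stays between 0.96 and 1.57 and never passes, and Slc25a39 stays between 0.36 and 0.64. Slc25a28 ranges from -3.40 with the fluidics station as a covariate to 0.38 without aged replicate 51. Slc25a39 and Slc25a28 have no point where probe sets ending in _x_at, _s_at or _a_at were left out, as all their tested probe sets have such an ending.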

How the data were processed

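Expression was measured in 6 samples on Affymetrix Mouse430_2 arrays. For each probe set the authors deposited a linear intensity, for which the submitters' processing notes name MAS5 (version and settings: not given in the sources used here). Every deposited array has a mean of 1500 after trimming 2% at each end, so it had been scaled to that mean.

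Intensities were taken to log2, 64 control probe sets were left out, and 22519 probe sets at or above the median mean log2 signal (9.08, a signal of 539.7) were tested with limma 3.58.1 in R 4.3.3 (lmFit, eBayes with trend, two-sided, Benjamini-Hochberg adjustment over all of them, threshold 0.05). "Dim" means below that filter. Errors of changes are limma's standard errors, n = 3 per group. The code was tested on simulated data. Promoters were searched and figures drawn in Python 3.11.15 (pandas 2.3.3, matplotlib 3.10.9, numpy 2.4.6).

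All 44 gene IDs matched RefSeq, with 0 symbols updated. 1 probe set with several symbols, one of them Slc25a37, was left out. Substrate classes come from textbook knowledge. The carriers, lists of related genes and markers, tests and alternatives were chosen with earlier results of these data known. Every carrier is named. Sample values are given for those past an unadjusted p of 0.05 and for a fixed set of 12, and were added after seeing the data for Slc25a29, Slc25a33, Slc25a39 and further probe sets. Related genes and cell type markers are named if they passed or stood on a fixed list, and some related genes and markers that did not pass are named too. The analysis was repeated with each array left out, with array weights, after quantile normalization or median centring, with the filter dropped or raised to the 60th percentile, with 218.8 (the signals' 25th percentile) added before log2, with the station or the 3 prime to 5 prime control ratio (called RNA quality) as a covariate, with eBayes robust or untrended, probe sets ending in _x_at, _s_at or _a_at left out, and with all probe sets of a gene averaged. Marker counts under these alternatives were added after seeing the data.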

Additional observations from a re-analysis of the deposited data

How the results depend on the processing

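Under 17 of the 18 alternatives 0 carriers passed; with the fluidics station as a covariate 1 did, Slc25a28, for which the estimate rests on 1 aged sample. The carriers' median change (0.115) moved by less than the SD of their median between samples (0.1215), except with the RNA quality covariate (-0.0414). That SD is larger than the change itself, so a fall to 0 would also count as no move. The median change was 0.044 with the station covariate and 0.0295 with probe sets averaged. After median centring it was -0.0009, where the median over all probe sets had moved to -0.11 from 0.0079. Slc25a1 kept its direction in all 18, from 0.96 to 1.57, with adjusted p from 0.0877 to 0.424. Of the 36 carriers 16 kept their sign in every alternative run, and 20 changed it in at least 1, always between changes that did not pass. The count of all probe sets past the threshold was 237; it was 138 with the RNA quality covariate, 21 without the trend, 136 with probe sets ending in _x_at, _s_at or _a_at left out, and 124 (without young replicate 2) to 342 (without aged replicate 53) with 1 array left out. No paired analysis was possible because the groups share no replicate numbers. The number of arrays limits the precision: the median standard error was 0.40 for the carriers and 0.49 for all genes.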
